A study of Mus musculus with 24 samples.

Results

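The hindlimb (HL) bud at E10.5, an early stage of limb outgrowth, was profiled by total RNA sequencing with and without loss of U11, a small nuclear RNA. The comparison was chosen by title: 3 libraries labelled as E10.5 mutant hindlimb and 3 labelled as E10.5 WT hindlimb, 6 of the 24 libraries of the study. Mutant embryos were U11flx/flx::Prrx1-Cre+ and WT embryos were U11flx/flx::Prrx1-Cre-, both on the C57/Bl6 strain, so the WT libraries also carry the floxed allele and differ by the absence of Cre. The other 18 libraries are forelimb (FL) buds of the same stage and both limbs at E11.5. Prrx1-Cre is known to act in limb mesenchyme and to start later in the hindlimb than in the forelimb, so ectoderm, endothelium, blood and immigrating muscle precursors of the bud are not its targets. The labels do not say which embryo, or how many embryos, each library came from. Each p-value therefore measures the spread between these libraries.

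Most introns are removed by the major spliceosome, and a small class, the minor introns, by a second machine, the minor spliceosome. In that machine U11 RNA pairs with the 5′ splice site and U12 RNA with the branch point, and the pair enters as one particle that also holds a set of dedicated proteins. Genes with minor introns include many that act in the cell cycle, DNA repair and RNA processing, and loss of the minor spliceosome is studied in limbs because several human growth disorders map to its RNAs.

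The floxed gene, Rnu11, is a snRNA gene at chr4:132270080-132270213 on the minus strand (GRCm38, GENCODE M21), and its annotated transcript is given because it is the molecule whose loss defines the mutant. Capitals mark AAAGG at positions 3 to 7, counted from the 5′ end, the stretch known to pair with the CCTTT of minor 5′ splice sites.
Rnu11: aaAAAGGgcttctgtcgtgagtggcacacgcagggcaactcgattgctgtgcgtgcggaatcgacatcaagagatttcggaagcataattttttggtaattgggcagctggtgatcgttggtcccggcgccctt

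U11 RNA was lower in all 3 mutant buds, at about 36.3% of the WT mean. Rnu11 read 189.5, 207 and 316 TPM in mutant replicates 1, 2 and 3, against 836, 635 and 495 TPM in WT replicates 1, 2 and 3. TPM relates a transcript's reads to its length and to the library total; a factor per library then made the medians equal, and all levels below are on that scale unless said otherwise. The highest mutant library lay below the lowest WT library, and the means were 238 ± 68.4 and 655 ± 172 (SD, n = 3 each; exact two-sided permutation test p = 0.1, the smallest that 3 against 3 allows). In a limma fit of log2(TPM + 1) over the 12 E10.5 libraries the change was -1.46 ± 0.60 (log2, mutant minus WT, standard error), with a 95% interval from -2.78 to -0.15 and a Benjamini-Hochberg adjusted p of 1. In bulk tissue, fewer cells of a type and less RNA per cell cannot be told apart, and cells outside the reach of Prrx1-Cre still make U11.

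The RNAs measured beside U11 showed overlapping groups after rescaling, but not on the TPM as deposited. Gm28872, a lincRNA annotated on the opposite strand over the whole of Rnu11, read 41.2, 52.8 and 92.4 TPM in the mutant libraries, against 96.5, 87.3 and 126 TPM in the WT libraries (exact p = 0.2). Which strand was counted is not given in the sources used here, so reads of Rnu11 and of its antisense partner may not be separable. Rnu12, the U12 partner RNA, read 150.7, 177 and 295 TPM in mutants and 346, 273 and 483 TPM in WT, or 56.5% of the WT mean (exact p = 0.2). For both RNAs the third mutant library lay inside the WT range on the rescaled values. As deposited, Gm28872 read 66.3, 71.2 and 74.0 TPM in mutants and 120.8, 86.5 and 141.7 TPM in WT. Rnu12 as deposited read 242, 239 and 236 TPM in mutants and 433, 271 and 543 TPM in WT. On that scale every mutant library lay below every WT library for both RNAs. For scale, the E10.5 forelimb had 37.1% of WT Rnu11 with overlapping groups (exact p = 0.2), or 18.8% without overlap when FL mutant replicate 3, described below, was left out (exact p = 0.2, the smallest that 2 against 3 allows), and the E11.5 hindlimb 25.4% (exact p = 0.1).

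**Figure D1:**
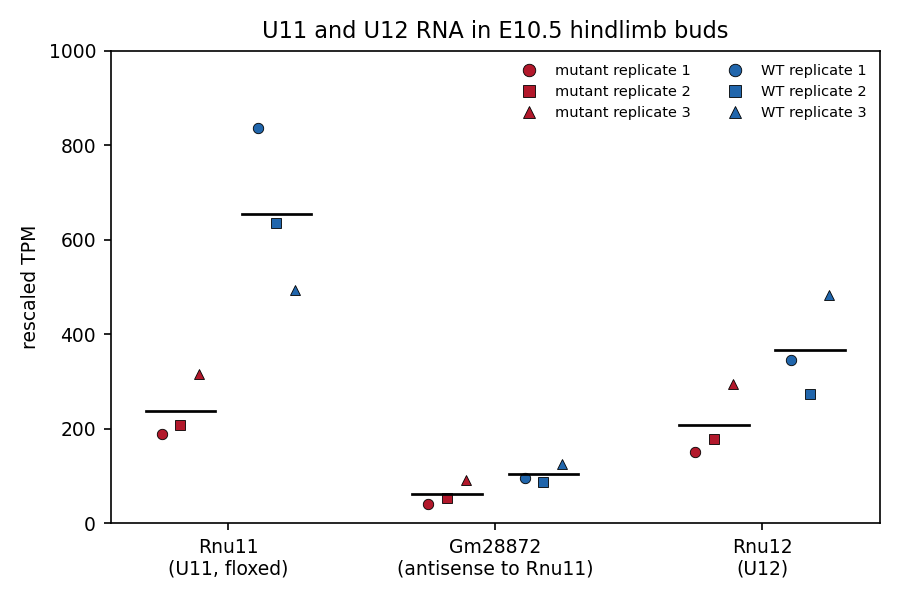
Rescaled TPM of Rnu11, its antisense gene Gm28872 and Rnu12 in each E10.5 hindlimb library, 3 mutant libraries (red, left) and 3 WT libraries (blue, right), with the group mean as a line. The mutant Rnu11 values, 189.5 to 316, all lie below the WT values, 495 to 836, while the groups overlap for Gm28872 and Rnu12.

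The libraries carried hindlimb identity. Tbx4, a hindlimb T-box factor, read 5.81 to 11.7 TPM over the 6 libraries, Pitx1, a hindlimb homeobox factor, 7.35 to 20, and Tbx5, its forelimb counterpart, at most 0.446. Correlations of log2 values were 0.952 to 0.966 between mutant libraries, 0.925 to 0.962 between WT libraries and 0.934 to 0.961 between the groups. Thus pairs across genotypes were as alike as pairs of WT libraries. The WT libraries differed most among themselves: WT replicate 1 stood alone on the first principal component, which held 34% of the variance, at -50.8 against 4.23 to 20.4 for the other 5. It had the lowest Prrx1 (20.1 TPM), Prrx2 (9.89) and Shox2 (3.65), which mark limb mesenchyme, and the highest Meox1 (11.4) and Wt1 (3.28), which mark somite and body wall. Sex also differed: Xist, the RNA of the inactive X chromosome, read 28.1, 0.011 and 17.2 TPM in the mutants and at most 0.054 in WT, and Y-linked Ddx3y read 0.032, 8.89 and 0 against 9.87, 10.3 and 9.15. Mutant replicates 1 and 3 thus look female and the other 4 libraries male, so sex and genotype partly coincide; without the 4 E10.5 libraries at 5 TPM or more of Xist, which leaves 1 hindlimb mutant library assumed to vary like the other groups, Rnu11 was at -1.62 and Capns1 at -0.52 (log2). E10.5 FL mutant replicate 3 enters the shared estimate of spread. It read Pitx1 at 1.81, Tbx4 at 1.99 and Hoxc10 at 4.62 TPM. The other E10.5 FL libraries read at most 0.107, 0.785 and 0.397 TPM. Its Meox1 was also the highest of the E10.5 FL libraries, at 12.1 TPM. It held both Xist (9.50 TPM) and Y-linked Ddx3y (7.68 TPM). The source of these RNAs was not tested, and the library was left out in one alternative.

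Across all genes, few differences between mutant and WT hindlimb buds exceeded the spread between libraries. Of 11771 genes tested in the limma fit, 1 passed the adjusted threshold of 0.05 (0.0085%). Without adjustment 231 genes lay under 0.05 (1.96%), 109 of them higher (0.926%) and 122 lower (1.04%) in mutants. Groups that did not overlap numbered 681 (5.79%), 323 higher (2.74%) and 358 lower (3.04%). A random order of 3 and 3 libraries would give 10% without overlap, more than was seen, so non-overlap alone does not mark a gene as changed. By sign alone 52.1% of genes were higher, and the median change was 0.01 (log2). On the TPM as deposited the median was 0.11, 74.1% of genes were higher and again 1 gene passed (0.00836%), so directions below are relative to the rescaled median. With protein-coding genes alone 0 passed by limma (0%), and 287 had an unadjusted p under 0.05 (2.23%). The median standard error was 0.19 (log2), and for 91.3% of genes the 95% interval lay within a log2 change of 1 in either direction. On log2(TPM + 1) that bound can stand for more than a 2-fold change in level for low genes. Among 6339 genes averaging 5 TPM or more over the 6 libraries the share was 93.1%.

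The gene that passed was AC154540.1, which GENCODE M21 does not list and to which no role is given. It read 0 TPM in all 3 mutant libraries, against 57.3, 252 and 39.9 TPM in WT (log2 change -6.40 ± 0.74, adjusted p = 0.0309; with mutants at 0 the size depends on the added 1 TPM). The same symbol read 149.9, 331 and 269 TPM in the E10.5 forelimb mutants and 591, 82.3 and 115.1 TPM in the forelimb WT, so the absence was not seen in that limb. The call was lost without any 1 of the 3 mutant libraries, without WT replicate 1 or 3, under a replicate block, without a filter on low values, without the 4 Xist-positive E10.5 libraries, with the embryo as a block and without FL mutant replicate 3 (adjusted p between 1.3e-05 and 1 over 15 alternatives).

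After AC154540.1, the smallest p was that of a lower level of Capns1, the small regulatory subunit of calpain proteases, in mutants. Capns1 read 15.0, 16.3 and 14.9 TPM in the mutant libraries, against 23.2, 25.0 and 23.6 TPM in the WT libraries. The groups were tight and well apart, with a mutant mean of 64.3% of WT (15.4 ± 0.77 and 23.9 ± 0.925, SD, n = 3 each; exact p = 0.1). The log2 change was -0.60 ± 0.09 and did not pass adjustment in limma (adjusted p = 0.184, 0.1 to 1 over the alternatives). As deposited, the values were 24.2, 21.9 and 11.9 against 29.0, 24.7 and 26.6 TPM, still without overlap. Capns1 stands in the hand-written list of minor-intron genes; its splice sites were not checked against sequence here.

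Capns1 was low in the other mutant groups too, which share no library with the E10.5 hindlimb; the E10.5 forelimb may share embryos with it. It read 17.1, 16.8 and 16.9 TPM in E10.5 forelimb mutants and 29.8, 27.1 and 28.4 TPM in their WT (log2 -0.71 ± 0.09, adjusted p = 0.0301), 1 of 3 genes that passed in that limb (0.0255%), though not without FL mutant replicate 3 (log2 -0.72 ± 0.11, adjusted p = 0.154). In the E11.5 hindlimb it read 8.69, 7.61 and 16.7 TPM in mutants and 22.1, 24.9 and 24.5 TPM in WT (log2 -1.13 ± 0.25, adjusted p = 0.754), and in the E11.5 forelimb its change was -1.02 ± 0.25 (adjusted p = 0.0602). The groups did not overlap in either of the first pair.

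Tbcb, which encodes a tubulin-folding cofactor and is the next tested gene along the chromosome, showed the same direction. It read 20.8, 16.7 and 24.6 TPM in mutants and 24.8, 30.5 and 33.9 TPM in WT (log2 -0.51 ± 0.17, unadjusted p = 0.0115, adjusted p = 1), with the third mutant library close to the first WT library. In the E11.5 hindlimb its change was -0.96 ± 0.21 (log2). Capns1 lies at chr7:30186936-30198811 and Tbcb at chr7:30224131-30232272, both on the minus strand (GRCm38). Within 150000 bases on either side of Capns1, a window chosen after its value was seen, 13 other genes were tested, of which 11 were lower in mutants by sign (47.9% of all genes), 4 without overlap (3.04% of all genes) and 1, Tbcb, at an unadjusted p under 0.05 (1.04% of all genes). Polr2i, an RNA polymerase II subunit whose gene overlaps Tbcb on the other strand, read 29.3, 32.2 and 31.8 TPM in mutants and 38.1, 38.9 and 32.4 TPM in WT. Alkbh6, a dioxygenase-family gene, read 8.93, 9.38 and 7.81 against 10.1, 11.2 and 11.1 TPM. Neither passed (unadjusted p = 0.116 and 0.0607). The 6 zinc-finger genes on the other side of Capns1 lay between -0.29 (Zfp82) and -0.02 (Zfp260), and Wdr62 and Syne4 on the side of Tbcb at 0.17 and 0.31 (log2).

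**Figure D2:**
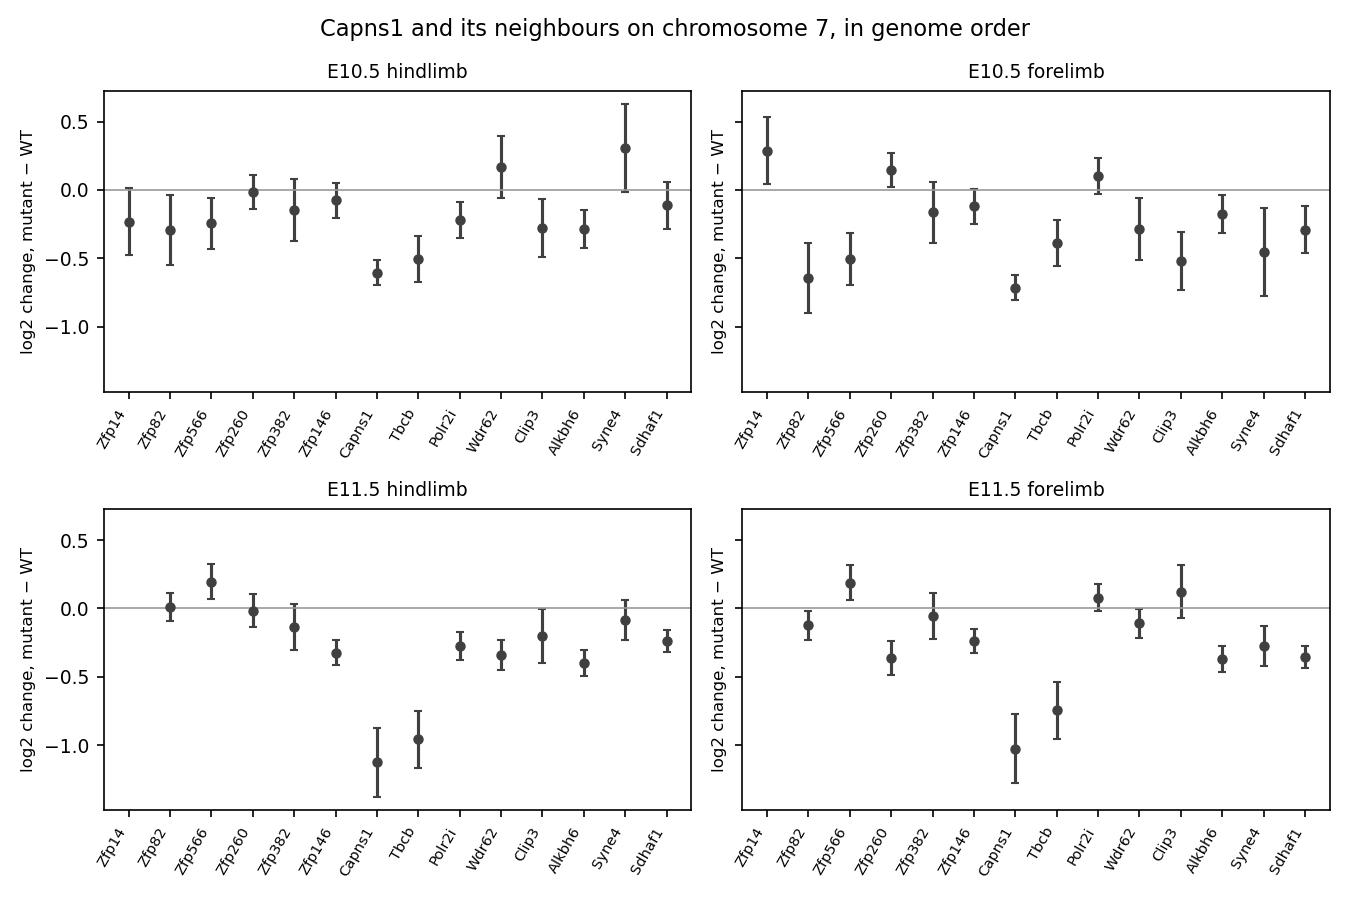
Log2 change, mutant minus WT, with its limma standard error (bars) for Capns1 and the tested genes within 150000 bases, in genome order, in each limb and stage; a gene with no point was under the filter of that stage. Capns1 and Tbcb are the lowest in E10.5 hindlimb at -0.60 and -0.51, and lie below 0 in all 4 panels.

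The 10 lower genes with the smallest unadjusted p, among genes whose groups did not overlap and whose higher group averaged at least 5 TPM, leaving out predicted genes and clone names, were mostly housekeeping genes with small differences. After Capns1 came R3hdm2, an R3H-domain gene, with 3.53, 3.03 and 3.04 TPM in mutants and 6.32, 4.61 and 4.71 TPM in WT (log2 -0.56 ± 0.13). Ap3s1, a subunit of an endosomal adaptor complex, was at -0.45 ± 0.13, and Vps4a, an ATPase of endosomal sorting, at -0.32 ± 0.12. Abhd5, a lipase cofactor, was at -0.52, Kbtbd4, a ubiquitin-ligase adaptor, at -0.53, and Pign, a GPI-anchor enzyme, at -0.72. In Pign, Abhd5 and R3hdm2, WT replicate 1, the library apart from the rest, was the highest of the 6; without it Pign was at -0.52 (log2). None of these passed adjustment (adjusted p = 1 for each).

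Of the 10 higher genes by the same rule, 9 had log2 changes of 0.31 to 0.70, and Mir719 is described below. Kctd3, a potassium-channel-domain protein, read 9.61, 9.33 and 8.81 TPM in mutants and 5.88, 6.15 and 6.71 TPM in WT (log2 0.50 ± 0.11, unadjusted p = 0.000741). Rrp1b and Ebna1bp2, nucleolar proteins of ribosome assembly, were at 0.54 ± 0.15 and 0.31 ± 0.10. Lap3, an aminopeptidase, read 37.8, 37.4 and 43.3 TPM against 26.8, 27.3 and 30.2 TPM (log2 0.47 ± 0.14). Plxnd1, an endothelial semaphorin receptor, was at 0.70 ± 0.23, Tmem184c at 0.48, Dok4, a signalling adaptor, at 0.46, Rnmtl1 at 0.40 and Slc7a6os at 0.36. Each of these 10 had an adjusted p of 1. Of the 20 ranked genes, 19 were tested at E11.5 hindlimb, where 5 of 9 of the higher and 4 of 10 of the lower kept their sign, beside 51.6% of all genes.

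**Figure D3:**
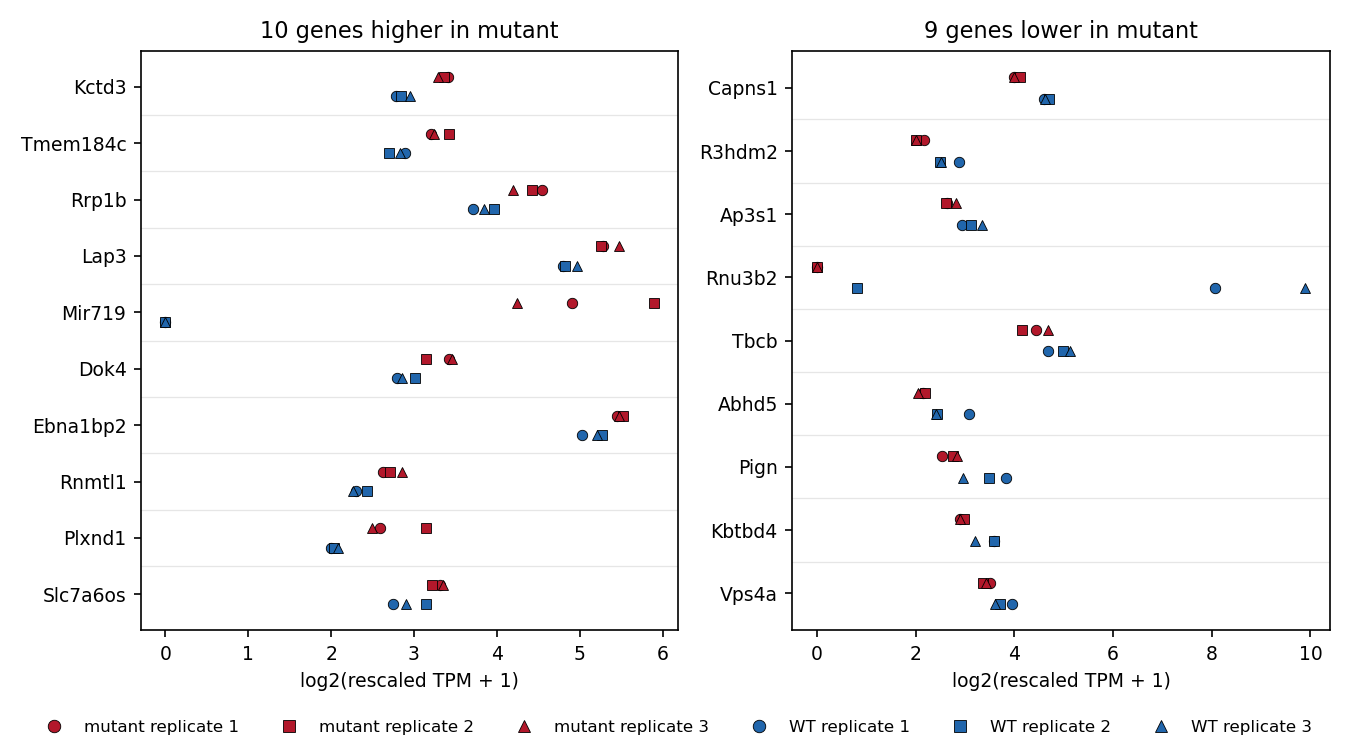
Log2(rescaled TPM + 1) in each E10.5 hindlimb library for the 10 higher genes (left panel) and 9 of the 10 lower genes (right panel) of the ranking rule, mutant libraries (red) above WT libraries (blue). The rule required groups without overlap; Capns1 has tight groups, while Rnu3b2 spans from 0.755 to 951 TPM in the WT libraries alone.

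A pair of short RNAs in that ranking had all libraries of one genotype at 0. Mir719, a microRNA gene at chr14:60228806-60228915, read 29.1, 58.5 and 18.0 TPM in mutants and is listed at 0 in all 3 WT libraries. In the forelimb it was listed at 0 in 1 of 3 mutant and 2 of 3 WT libraries, so its zeros did not follow genotype there. The mature product is shown because total RNA libraries measure the hairpin gene, not this short product; capitals mark the seed, bases 2 to 8 (RefSeq, GRCm38.p6, chr14:60228873-60228894, minus strand).
mmu-miR-719: aUCUCGGCuacagaaaaauguu

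Rnu3b2, a copy of the U3 small nucleolar RNA that guides ribosomal RNA cleavage, is listed at 0 in the mutants, against 268, 0.755 and 951 TPM in WT. The 4 annotated Rnu3b copies are identical over all 215 bases compared, so reads cannot be assigned to one of them; the shared sequence is printed for that reason, at the place of Rnu3b2, chr11:87471368-87471582, plus strand (GRCm38).
Rnu3b2: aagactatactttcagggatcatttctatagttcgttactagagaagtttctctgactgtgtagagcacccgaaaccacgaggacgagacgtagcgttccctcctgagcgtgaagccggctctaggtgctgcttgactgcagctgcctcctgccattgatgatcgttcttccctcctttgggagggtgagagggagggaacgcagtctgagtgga

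The sum of the 4 copies was 4613, 5310 and 7268 TPM in mutants and 8357, 8437 and 5016 TPM in WT, so the summed U3b RNA overlapped between the groups. Gm24500, an annotated snoRNA chosen after its values were seen, read 31.4, 25.0 and 17.0 TPM in mutants and 0, 8.54 and 0 TPM in WT (log2 3.55 ± 0.67, adjusted p = 0.702).

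No gene for a protein partner of U11 and U12 passed the test. All 14 listed genes for minor spliceosome proteins were tested, 7 were higher and 7 lower. None was without overlap, and the median log2 change was 0.00 beside 0.01 over all genes. The extremes were Snrnp35, a U11 protein, at -0.28 ± 0.13, and Zrsr2, which recognises the 3′ splice site of minor introns, at 0.28 ± 0.15. Zcrb1 read 25.5, 26.1 and 29.9 TPM in mutants and 19.9, 27.0 and 24.6 TPM in WT. The summed RNA of these 14 genes was 126 to 139 TPM in mutants and 125 to 133 TPM in WT, and protein was not measured.

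Genes of the hand-written minor-intron list had a median near that of all genes. Of 78 listed, 76 were tested; 35 were higher and 41 lower, with a median of 0.00. Capns1 was the single member at an unadjusted p under 0.05, and 8 members had groups without overlap, 3 higher and 5 lower (2.74% and 3.04% of all genes). Arpc5l, an actin-nucleation subunit, read 16.1, 16.3 and 17.0 TPM in mutants and 12.9, 12.2 and 14.8 TPM in WT (log2 0.29 ± 0.16). The most abundant members, Dynll1, a dynein light chain, and Snrpe, a core spliceosome protein, were at -0.21 ± 0.16 and 0.04 ± 0.20. Gene-level TPM does not show whether an intron is retained, and splicing was not analysed here.

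No list of stress or death genes showed a call. Of 29 tested targets of p53, the DNA-damage transcription factor, 11 were higher and 18 lower, with a median of -0.03 and none at an unadjusted p under 0.05. Dcxr, a reductase, was the 1 member without overlap (3.45%, beside 5.79% of all genes), at -0.45 ± 0.35. Mdm2, its ubiquitin ligase, read 11.95, 10.02 and 8.88 TPM in mutants and 13.5, 12.3 and 8.32 TPM in WT, and Cdkn1a, the cell-cycle inhibitor, was under the filter at 0.271, 0.568 and 0.627 against 0.507, 0.430 and 0.793 TPM. Phlda3 and Aen, targets with roles in apoptosis, were at 0.36 ± 0.24 and 0.30 ± 0.17, Bax at 0.18 ± 0.21 and Trp53inp1 at -0.30 ± 0.22. The stress factor Atf4 read 39.3, 38.8 and 37.1 TPM in mutants and 34.6, 32.6 and 38.4 TPM in WT, and the 16 tested genes of its response had a median of 0.01. Among 18 apoptosis genes, Casp6, an executioner caspase, read 4.76, 5.99 and 6.11 TPM in mutants and 7.58, 7.95 and 7.60 TPM in WT (log2 -0.40 ± 0.16, unadjusted p = 0.0262, adjusted p = 1). Cycs, the cytochrome that activates caspases, was at -0.07 ± 0.15.

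Replication genes were level, and mitotic genes lay slightly low by sign. The 30 G1/S genes split 15 to 15 with a median of 0.00; Pcna, the replication clamp, was at 0.05 ± 0.18, Cdk4 at -0.09 ± 0.14, and Ccnd2, a cyclin, at -0.38 ± 0.28. Of 49 G2/M genes 37 were lower (75.5%, beside 47.9% of all genes), with a median of -0.07. On the deposited scale 32 of 49 were higher with a median of 0.03, beside 74.1% and 0.11 for all genes. Top2a, topoisomerase II, read 152, 153 and 151 TPM in mutants and 189, 180 and 161 TPM in WT (log2 -0.21 ± 0.13). Its groups did not overlap (3.04% of all genes lower in this way), as for 7 other lower members, among them Tacc3 at -0.16, and for 1 higher member, Cenpa, at 0.25. On the deposited scale 0 of 49 members had groups without overlap, beside 1.98% of all genes. No G2/M member reached an unadjusted p under 0.05, and summed levels overlapped, at 1516 to 1623 TPM in mutants and 1602 to 1700 TPM in WT.

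**Figure D4:**
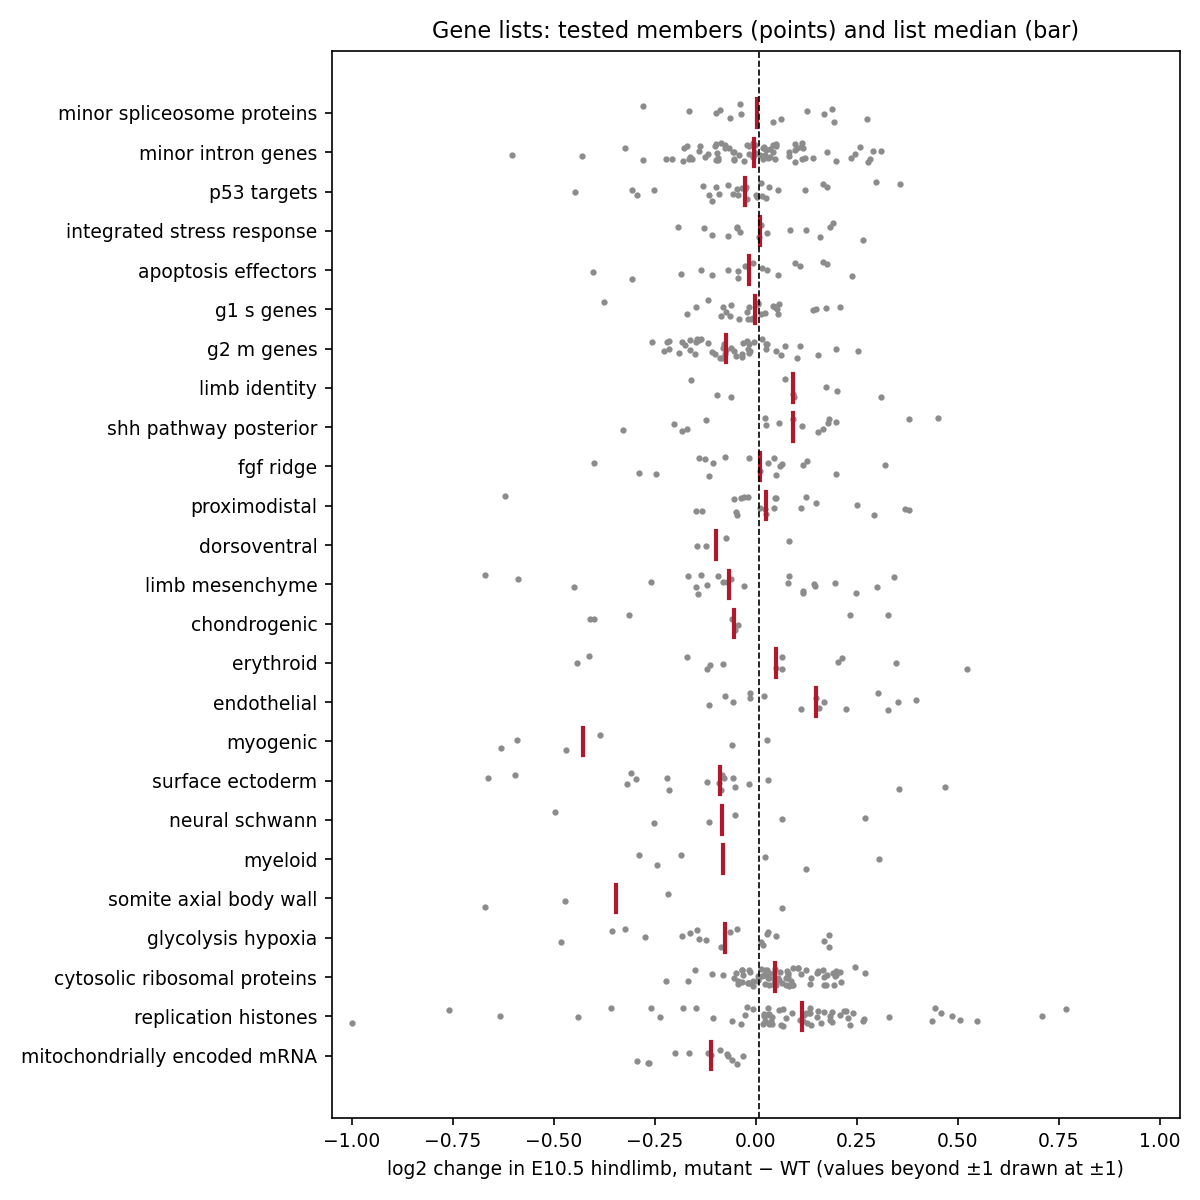
Log2 change, mutant minus WT, of each tested member (grey points, jittered vertically) of 25 gene lists in E10.5 hindlimb, with the list median (red bar) and the median of all genes tested (dashed line, 0.01); a histone gene beyond the axis is drawn at its end. Medians of the spliceosome, p53, stress and cell-cycle lists lie between -0.07 and 0.01, and the lowest is that of the myogenic list at -0.43.

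No patterning gene passed the test, and for some the WT libraries spanned a wide range. Shh, the posterior signal, read 0.155, 0.131 and 0.318 TPM in mutants and 0, 0.239 and 1.12 TPM in WT. Hand2, which acts upstream of Shh, read 7.16, 5.75 and 7.12 against 2.83, 6.25 and 10.7 TPM, and Ptch1, its receptor and target, 3.68, 3.68 and 5.14 against 2.26, 3.37 and 6.80 TPM. In each case WT replicate 1 was lowest and WT replicate 3 highest of the 6 libraries, with the mutants between them. The 17 tested hedgehog and posterior genes had a median of 0.09, 12 higher and 5 lower, none without overlap; Grem1, a BMP antagonist, was at -0.33 ± 0.32 and Gli3 at 0.18 ± 0.31.

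Of 19 tested ridge and FGF genes, 1 had groups without overlap (5.26%, beside 5.79% of all genes). It was Fgfr3, an FGF receptor, with 0.970, 0.844 and 1.09 TPM in mutants and 1.37, 2.48 and 1.12 TPM in WT (log2 -0.40 ± 0.33). Fgf8, the signal of the apical ectodermal ridge, read 10.8, 18.8 and 20.4 TPM in mutants and 11.48, 14.8 and 18.6 TPM in WT (log2 0.13, 95% interval -0.61 to 0.86). Fgf10, its mesenchymal partner, was at 0.32 ± 0.22, Fgfr2, the receptor of Fgf10, at -0.25 ± 0.18, and Dusp6, an FGF target, at -0.02 ± 0.28. Hoxa13, a distal homeobox gene, read 1.20, 1.56 and 3.20 against 1.00, 1.29 and 4.35 TPM, and Hoxd12 1.68, 1.26 and 3.85 against 0.783, 1.97 and 4.27 TPM: the third library was highest in both genotypes. Cyp26b1, which degrades retinoic acid, read 1.87, 1.62 and 1.45 TPM in mutants and 2.50, 2.36 and 4.69 TPM in WT (log2 -0.62 ± 0.32, unadjusted p = 0.0799). Of 22 tested proximodistal genes it was the only one without overlap (4.55%, beside 5.79% of all genes). Meis2, a proximal factor, was at -0.04 ± 0.15, and Irx3 at 0.29 ± 0.22. Dorsoventral genes were few, with Wnt5a at -0.12 ± 0.28, Wnt7a at -0.07 ± 0.25 and Bmpr1a at -0.15 ± 0.14.

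The 9 limb identity genes, which include the forelimb factor Tbx5 among the higher, split 6 higher and 3 lower with a median of 0.09. Tbx4 read 10.7, 8.21 and 8.39 TPM in mutants and 5.81, 7.18 and 11.7 TPM in WT, Pitx1 11.6, 9.77 and 15.8 against 7.35, 9.71 and 20.0 TPM, and Isl1 6.37, 4.35 and 15.4 against 7.42, 5.54 and 5.14 TPM. The WT values enclosed the mutant values of Tbx4 and Pitx1. Hoxc10 was at -0.10 ± 0.49, Hoxc11 at -0.06 ± 0.40, Hoxc9 at 0.20 ± 0.22, Hoxc5 at -0.16 ± 0.23, Hoxc4 at 0.07 ± 0.18 and Tbx5 at 0.09 ± 0.43 (all log2, adjusted p = 1).

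**Figure D5:**
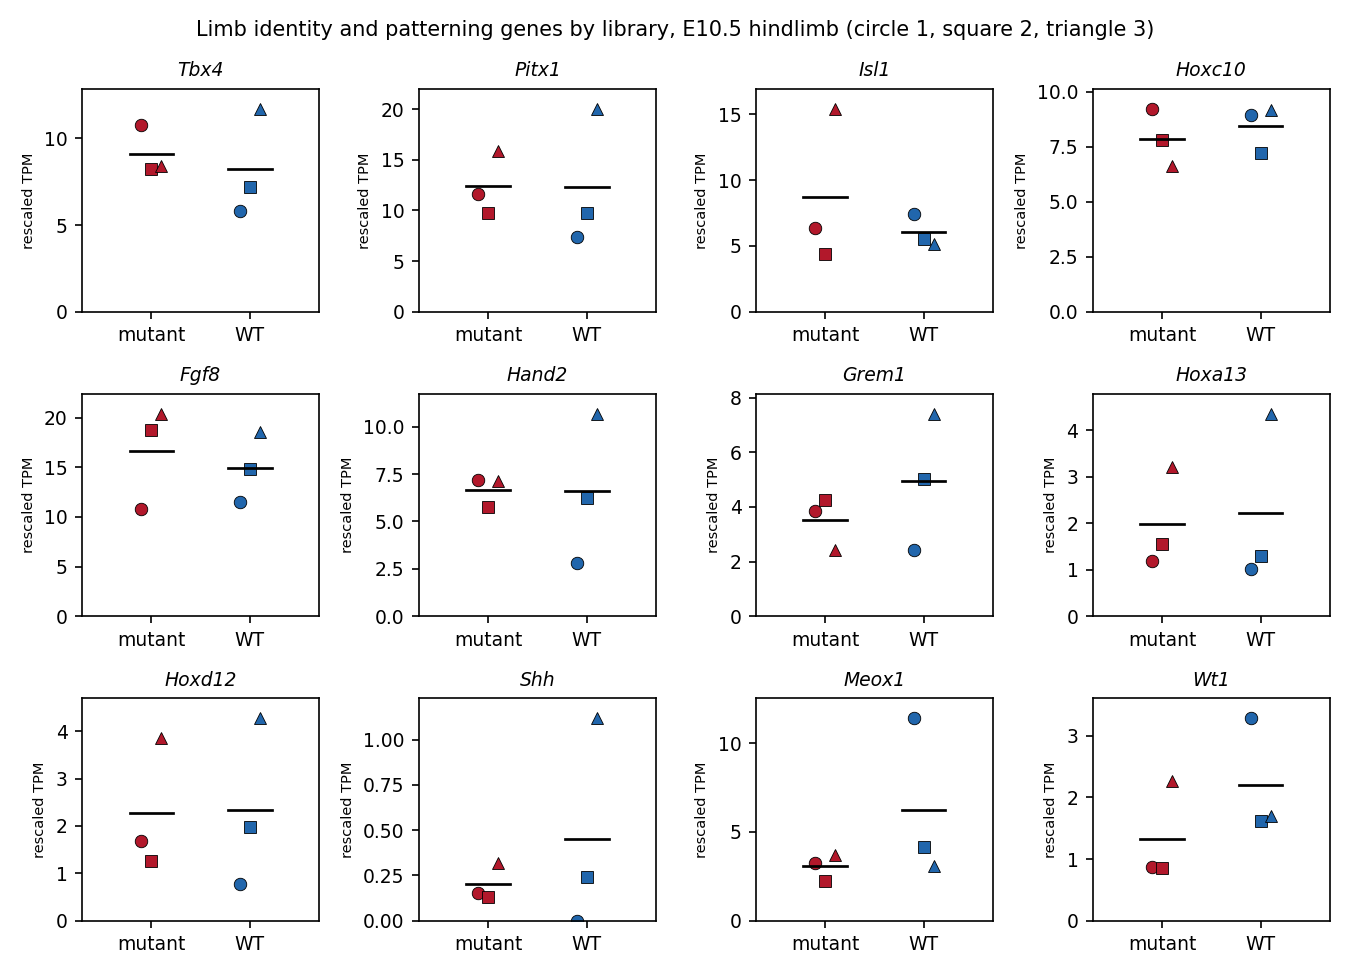
Rescaled TPM of 12 limb identity, patterning and body-wall genes in each E10.5 hindlimb library, 3 mutant (red, left) and 3 WT (blue, right), with the group mean as a line and the same symbol for the same replicate number. For Shh, Hand2 and Tbx4 the WT libraries span a wider range than the mutants, with WT replicate 1 lowest; Meox1 and Wt1 are highest in WT replicate 1.

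Mesenchyme and early cartilage genes held no call either. Of 24 limb mesenchyme genes 10 were higher and 14 lower (median -0.07). Col1a2, a type I collagen chain, read 6.54, 6.24 and 6.33 TPM in mutants and 7.004, 11.6 and 9.11 TPM in WT (log2 -0.45 ± 0.21, unadjusted p = 0.0519). Prrx1, the gene whose promoter gives the Cre its name, read 39.4, 33.5 and 34.4 TPM in mutants and 20.1, 35.4 and 46.7 TPM in WT. Col2a1 and Sox9, the cartilage collagen and its activator, were at -0.41 ± 0.23 and -0.31 ± 0.20, and Sox5, a partner of Sox9, at 0.33 ± 0.24.

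Among markers of cell types outside the reach of Prrx1-Cre, some muscle precursor genes were lower in every mutant library after rescaling, but none on the TPM as deposited. Pax3, which marks muscle precursors and also somite, read 1.13, 1.09 and 0.740 TPM in mutants and 3.42, 1.596 and 1.52 TPM in WT (log2 -0.63 ± 0.21, unadjusted p = 0.0126). Met, their migration receptor, read 2.92, 2.77 and 2.82 TPM in mutants and 5.43, 3.92 and 3.73 TPM in WT (log2 -0.47 ± 0.16, unadjusted p = 0.0143). Of 12 myogenic genes 6 were tested, 5 of them lower (47.9% of all genes), 3 without overlap (3.04% of all genes), with a median of -0.43. The 1 higher member, Eya1, was at 0.03 ± 0.24 (log2). It read 2.55, 2.97 and 5.41 TPM in mutants and 2.54, 3.99 and 3.82 TPM in WT. On the deposited scale 5 of the 6 were lower (25.9% of all genes), 0 of them without overlap, with a median of -0.38. Myod1, the muscle determination factor, read at most 0.061 TPM in any library. WT replicate 1 was again the highest of the 6 for Pax3 and Met, and without it they were at -0.36 and -0.33 (log2). Summed myogenic markers were 9.13 to 12.9 TPM in mutants and 13.1 to 17.2 TPM in WT.

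In the surface ectoderm list 15 of 18 tested genes were lower by sign (83.3%, beside 47.9% of all genes). The median was -0.09 (-0.02 on the deposited scale, beside 0.11 for all genes). The most abundant members, Cldn6 and Krt18, were at -0.02 ± 0.25 and -0.08 ± 0.39, and the highest of the 3 higher members was at 0.47 (log2). Dsp, a desmosome protein, read 1.33, 2.05 and 2.36 TPM in mutants and 4.45, 3.97 and 2.50 TPM in WT (log2 -0.66 ± 0.23, unadjusted p = 0.0154), and Krt14 was at -0.60 ± 0.32. The summed list ran from 62.9 to 146 TPM in mutants, with the third library highest, and from 95.3 to 101 TPM in WT. Of 15 endothelial genes 10 were higher (66.7%, beside 52.1% of all genes) and 5 lower, with a median of 0.15. Groups without overlap numbered 0 (5.79% of all genes). Cldn5, a tight-junction protein, read 4.58, 3.66 and 5.41 TPM in mutants and 2.91, 2.87 and 3.84 TPM in WT. Its change, the highest of the list, was 0.40 ± 0.18 (log2, limma unadjusted p = 0.0494). The most abundant members, Egfl7 and Emcn, were at 0.35 ± 0.20 and -0.08 ± 0.17. Embryonic globins varied with the library: Hbb-y read 1246, 949 and 1213 TPM in mutants and 691, 1579 and 1184 TPM in WT. Of 13 tested erythroid genes 7 were higher and 6 lower (median 0.05). Klf1, an erythroid factor, was at 0.35 ± 0.16 (unadjusted p = 0.047), while Slc4a1 was at -0.44 ± 0.25 and Hbb-bt at -0.41 ± 0.26. Of 6 tested nerve and Schwann cell genes 2 were higher and 4 lower (median -0.08). Tubb3, a neuronal tubulin, was at -0.50 ± 0.22 (unadjusted p = 0.0437), with 0.985, 1.41 and 1.47 TPM in mutants and 2.29, 2.08 and 2.28 TPM in WT. The higher members were Isl2 at 0.27 ± 0.24 and Gap43 at 0.07 ± 0.23. Myeloid markers summed to 6.71 to 8.95 TPM in mutants and 7.38 to 10.4 TPM in WT. Somite and body-wall markers summed to 9.39 to 13.7 TPM in mutants and 24.6, 11.6 and 9.96 TPM in WT. The part of cell mixture in these values was not tested, and every named marker had an adjusted p of 1.

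Abundant housekeeping classes leaned one way by sign without a call. Of 81 ribosomal protein genes 60 were higher (74.1%, median 0.05), and of 66 replication histone genes 51 (77.3%, median 0.11), beside 52.1% of all genes. All 13 mitochondrially encoded mRNAs were lower (47.9% of all genes), with a median of -0.11. The alternatives moved each of these medians across 0, the ranges being -0.07 to 0.18, -0.22 to 0.29 and -0.34 to 0.01. The ribosomal protein and histone medians were each below 0 in 2 of 16 alternatives, and the mitochondrial median was above 0 in 1 of 15. Their sums overlapped, at 26362 to 38459 TPM in mutants and 28887 to 33322 TPM in WT for ribosomal protein genes and at 19635 to 36941 against 24798 to 31068 TPM for mitochondrial mRNAs. Glycolysis and hypoxia genes had a median of -0.08, with Pkm at 0.01 ± 0.15, Gapdh at -0.05 ± 0.23 and Slc2a3, a glucose transporter, at -0.48 ± 0.27. Of 13 tested genes from a list chosen on this study's later libraries, and so not independent, 8 were higher, with Capns1 the lowest.

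The mutant effect in hindlimb was compared with that in the E10.5 forelimb, which asks whether U11 loss acted alike in both limbs. No gene of 11771 passed for the difference of the effects by limma (0%), with 297 at an unadjusted p under 0.05 (2.52%). Named by the smallest p, Plekhm2, a lysosome-transport adaptor, was at 0.45 in hindlimb and -0.65 in forelimb (difference 1.096 ± 0.26), and Kctd3 at 0.50 and -0.15 (difference 0.65 ± 0.15). Foxn3, a forkhead factor, differed by 0.70 ± 0.18, and in the other direction Snora44, a snoRNA, by -2.27 ± 0.45, Zfpm1, a GATA cofactor, by -1.43 ± 0.34, and Mt2, a metallothionein, by -0.96 ± 0.27. For Rnu11 the difference was 0.09 ± 0.85 and for Capns1 0.11 ± 0.13, both within their errors (adjusted p = 1 for each of these 8). Without FL mutant replicate 3 the Rnu11 effect was -1.47 in hindlimb and -2.23 in forelimb, a difference of 0.76 ± 0.70 (adjusted p = 1).

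Between stages, the effect at E10.5 was set against that at E11.5 in hindlimb, in a fit of all 24 libraries. AC154540.1 alone of 12118 genes passed by limma (0.00825%, with 307 at an unadjusted p under 0.05, 2.53%), with a difference of -6.19 ± 0.80 and an adjusted p of 0.00315. It is listed at 0 in all 6 E11.5 hindlimb libraries, so no effect could be seen at that stage. Its difference therefore restates the E10.5 change. Capns1 differed by 0.53 ± 0.28 and Rnu11 by 0.44 ± 0.70, so a larger effect at E11.5 was not separable from the error. Adrbk2, a receptor kinase, Rfx5, an MHC class II factor, and Kctd3 differed by 0.67 ± 0.18, 0.82 ± 0.22 and 0.51 ± 0.14, and Kcne3, a channel subunit, Stfa1, a protease inhibitor, and Slc16a7, a monocarboxylate carrier under the filter at E10.5, by -0.78 ± 0.19, -1.09 ± 0.29 and -0.55 ± 0.15. Each had an adjusted p of 1. Rpl28, a ribosomal protein gene that passed in the E11.5 hindlimb (2 genes, 0.0182%) at -2.98 (log2), read 75.1, 90.7 and 206 TPM in E10.5 mutants and 64.6, 91.1 and 380 TPM in WT. Gm24405, the other E11.5 call, read 1.31, 0 and 9.07 TPM in mutants and 0 in each WT library. Of 10699 genes tested in hindlimb at both stages, 13 had an unadjusted p under 0.05 at both, where the separate shares were 1.96% at E10.5 and 6% at E11.5. Whether 13 exceeds what these shares give together was not tested, so the 13 are not read as a set kept across stages. Of the 13, 10 had the same sign (51.6% of all genes did), among them Rnu11, Capns1, Tbcb, Agbl5 and Numbl. Adrbk2, Gm24405 and Ppip5k1 had opposite signs.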

How the data were processed

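RNA of hindlimb and forelimb buds was sequenced as stranded total RNA libraries, and 3 nt were trimmed from the 3′ end of E10.5 reads, per the labels. The deposited values are TPM per gene, which the authors made from their reads; HISAT2 and mm10 are named in the submitters' processing notes, and for the quantifier, annotation and strand setting the sources used here give nothing. TPM sums to 1000000 in every library and keeps no depth, so depth is unknown and no counting interval is given. Each E10.5 library was rescaled to a common median over 4168 genes at 5 TPM or more in all 12. Genes at 1 TPM or more in at least 3 libraries (11771) were tested as log2(TPM + 1) with limma 3.58.1 in R 4.3.3 (trend, Benjamini-Hochberg, 0.05), all 4 E10.5 groups sharing the spread (8 residual degrees of freedom); fold changes on this scale understate those of low genes. The method was tested on simulated data. Single values had exact two-sided permutation tests. Coordinates come from GENCODE M21 (36287 of 38019 symbols matched). The genes named are Rnu11, calls, the 10 higher and 10 lower by smallest p whose groups do not overlap at a mean of 5 TPM or more (without predicted genes, Xist and Y-linked genes), the 3 smallest p and 2 highest levels of each list, limb identity genes, E11.5 hindlimb calls and the 3 smallest p each way of each difference; others were chosen after their values were seen. Not every gene under this rule is described, and some are not reported here. The members and lists were chosen with earlier results of these data known. Same-numbered mutant and WT residuals correlated at 0.0164, 0.1006 and 0.1551, not all over 0.1, so the genotypes were not paired by number. Same-numbered hindlimb and forelimb residuals correlated at 0.1051, 0.1807 and 0.1961 in mutants and 0.1505, 0.0671 and 0.2846 in WT, and a block for a possible shared embryo is an alternative. That block and the fits without FL mutant replicate 3 were chosen after seeing the data.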

Additional observations from a re-analysis of the deposited data

Results flagged for a closer look

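AC154540.1 passed in the contrast between stages: its mutant effect in the E10.5 hindlimb minus that in the E11.5 hindlimb was -6.19 ± 0.80 (log2, limma contrast, adjusted p = 0.00315). In the hindlimb it is listed at 0 in all 3 E10.5 mutant libraries, at 57.3, 252 and 39.9 TPM in E10.5 WT, and at 0 in all 6 E11.5 libraries. With every E11.5 hindlimb value at 0 no mutant effect could be seen there. The contrast thus restates the E10.5 change and does not show a change of effect with stage. Reads of the stages were trimmed differently, and the part of that in the difference was not tested.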

How the results depend on the processing

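One gene passed in the reported hindlimb comparison, and the count was 0 without a filter, 4 with only hindlimb libraries, 3 with all 24 libraries, 0 with protein-coding genes only (287 at an unadjusted p under 0.05), 4 without the 4 Xist-positive libraries (1 hindlimb mutant library left, assumed to vary like the other groups), 0 without FL mutant replicate 3, and 0 to 3 with 1 hindlimb library left out, 3 only without WT replicate 2. With the replicate block the count was 0 (322 at an unadjusted p under 0.05), and with the embryo replicate block, added after seeing the data (consensus correlation 0.2946), it was 0 (223); mutant replicate 1 correlated best with WT replicate 2 (0.0436). For the difference between limbs, 0 as reported, the counts were 2 on the deposited TPM, 1 with a pseudocount of 0.1, 2 with all 24 libraries, 0 with the embryo replicate block (542 at an unadjusted p under 0.05, 297 as reported), 1 without the Xist-positive libraries and 0 to 1 with 1 library left out. For the difference between stages, 1 as reported, they were 3 without a filter, 0 with protein-coding genes, 6 without the Xist-positive libraries and 1 to 2 with 1 library left out. Rnu11 kept its direction in all 15 alternatives, from -1.69 to -1.27 (log2). Of 160 genes followed, 54 had values on both sides of 0 over the alternatives, and 17 single values turned by more than the standard error of the reported value. With 1 library left out, Bad ranged from -0.0066 to 0.47, Pbx2 from -0.048 to 0.47, Wnt7a from -0.26 to 0.24, Hbb-y from -0.28 to 0.32, Gap43 from -0.19 to 0.22, Hist1h4c from -0.26 to 0.38 and Hand2 from -0.26 to 0.54, each turning sign without WT replicate 1. Dusp6 (-0.26 to 0.34) and Eya1 (-0.23 to 0.20) turned without mutant replicate 3, Mt2 (-0.0082 to 0.33) without mutant replicate 1, and Rpl28 (-0.73 to 0.54) and Rnu3b4 (-0.50 to 1.24) without WT replicate 3. Without the Xist-positive libraries Tbx3 was at -0.054, Hbb-bh1 -0.21, Cd68 0.21, Gm24405 0 and Rnu3b1 0.11. Mir719 passed with only hindlimb libraries (5.22), Rnu3b2 without WT replicate 2 (-8.99), and Gm24500 with all 24 libraries (3.39) and without WT replicate 2 (4.63). The causes were not tested. TPM without depth limits what low genes can show.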

Other observations

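Libraries numbered 3 differed from those numbered 1 and 2 across both genotypes and limbs at E10.5: 30 of 11771 genes passed (limma, 0.255%), 13 higher and 17 lower, beside 1 gene for number 1 and 0 for number 2 (695 at an unadjusted p under 0.05). Igfbp2, an IGF-binding protein, was higher in the libraries numbered 3 by 0.71 ± 0.10 (log2), Id3, an inhibitor of DNA binding, by 0.55 ± 0.09, and the ribosomal protein gene Rpl28 by 1.84 ± 0.16. Pttg1, the securin of mitosis, was at -1.11 ± 0.14, Alg8, a glycosylation enzyme, at -0.90 ± 0.08, and Rprl3, a ribonuclease P RNA gene, at -7.86 ± 0.34. The labels do not say what the number stands for.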
